A study of Mus musculus with 28 samples.

Results

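Dazl, Sohlh2, Dmrt1 and Taf7l are germ cell regulators that mouse embryonic stem (ES) cells also transcribe at low levels, and their counts were followed here through every genotype and stage of an RNA sequencing series on how ES cells leave the naive state. They were chosen by symbol, after the Entrez identifiers of the count tables had been matched to mouse symbols, and are 4 of the 24116 genes counted. Earlier results of these data were known when the 4 genes were chosen. The cells were the female line RGd2, which carries a Rex1:GFPd2-IRES-Blasticidin reporter of the naive state. They were grown in N2B27 with 2i (the Mek inhibitor PD0325901 and the Gsk3 inhibitor CHIR99021), a stage called ESC; other samples were collected once 2i had been absent for 16 h or 32 h. In the first set of libraries, made from ribosome-depleted RNA, Zfp281 knockout (KO) cells of all 3 stages were set against wild type (WT) cells of the same stages. In the second set, made from polyadenylated RNA, ESC and 32 h cells lacking Ehmt1 (Ehmt1 KO), Zic2 (Zic2 KO) or both genes (double KO) were set against WT cells. Each of the 14 groups held 2 libraries, 28 in all. Each KO group was 2 KO lines, clones 1 and 2. The altered part of each targeted gene is not in the labels, and the labels do not say that libraries came from separate cultures, so p-values measure only the spread between these libraries. The WT pair was the lines named WT and Zfp281_WT in the ribo-depleted set, and Ehmt1_WT and Zic2_WT in the polyA set. Levels were not compared between the kits.

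Dazl encodes an RNA-binding protein that promotes the translation of germ cell mRNAs and is needed for germ cells to develop in both sexes. Sohlh2 is a basic helix-loop-helix transcription factor of early oocyte and spermatogonial differentiation, and Dmrt1 is a DM domain transcription factor of germ cells and of Sertoli cells in the testis. Taf7l is an X-linked, testis-enriched relative of Taf7, a subunit of the general transcription factor TFIID. Genes of this kind are silent in most somatic cells. Many have CpG-rich promoters that are held silent by DNA methylation, by the Polycomb complex PRC1.6 (with Mga, Max, E2f6, Pcgf6 and L3mbtl2) and by the histone H3K9 methyltransferases Ehmt1 and Ehmt2. ES cells in 2i have little DNA methylation and gain it as they leave the naive state. Zfp281 and Zic2 are zinc finger transcription factors.

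In the RefSeq annotation of GRCm38, Dazl (Entrez 13164) lies on chromosome 17 at 50279393 to 50293620 on the minus strand, with 3820 bases of exon in GENCODE vM21. Sohlh2 (74434) lies on chromosome 3 at 55182044 to 55209957 on the plus strand, with 2364 exonic bases. Dmrt1 (50796) lies on chromosome 19 at 25505618 to 25604328 on the plus strand, with 2594 exonic bases. Taf7l (74469) lies on chromosome X at 134460116 to 134476505 on the minus strand, with 2245 exonic bases. No other GENCODE gene overlapped any of them. Reads of Taf7l could be shared with its retrocopy Taf7l2, which averaged between 0.334 and 1.17 CPM over the groups (CPM, counts scaled to library sizes normalised by TMM).

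The promoters of 3 of the genes are shown because CpG density is the feature by which such promoters are grouped. Each window runs from 250 bases before to 50 after the RefSeq start (GRCm38.p6), 5′ to 3′ on the gene's own strand, with every CG in capitals. They are at chr17:50293571-50293870 (minus strand) for Dazl, chr3:55181794-55182093 (plus) for Sohlh2 and chrX:134476441-134476740 (minus) for Taf7l.
Dazl: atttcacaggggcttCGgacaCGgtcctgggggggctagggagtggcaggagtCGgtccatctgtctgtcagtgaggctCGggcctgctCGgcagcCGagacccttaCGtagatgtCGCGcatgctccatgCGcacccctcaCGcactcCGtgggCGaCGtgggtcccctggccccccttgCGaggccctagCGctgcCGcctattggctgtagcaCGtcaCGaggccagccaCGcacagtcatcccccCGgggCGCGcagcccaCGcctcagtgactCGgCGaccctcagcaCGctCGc
Sohlh2: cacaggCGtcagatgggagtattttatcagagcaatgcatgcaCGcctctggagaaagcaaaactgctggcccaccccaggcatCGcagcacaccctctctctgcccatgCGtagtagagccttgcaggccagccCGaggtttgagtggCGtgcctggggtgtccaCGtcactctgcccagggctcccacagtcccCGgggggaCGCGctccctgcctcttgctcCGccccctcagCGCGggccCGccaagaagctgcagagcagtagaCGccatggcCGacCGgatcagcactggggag
Taf7l: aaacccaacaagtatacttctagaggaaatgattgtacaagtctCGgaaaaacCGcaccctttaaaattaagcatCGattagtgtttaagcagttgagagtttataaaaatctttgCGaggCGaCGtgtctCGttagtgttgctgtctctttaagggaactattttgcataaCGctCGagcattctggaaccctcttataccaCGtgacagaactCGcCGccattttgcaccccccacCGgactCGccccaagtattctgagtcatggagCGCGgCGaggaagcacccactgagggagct
The Dazl window holds 28 CG dinucleotides, a number reached by 14.2% of 32851 RefSeq promoter windows. The Sohlh2 and Taf7l windows hold 17 each, reached by 31.4% of windows, and the median over all windows is 7. The E-box CACGTG, read on both strands, occurs in the Taf7l window at position -49 relative to the start, and 7.15% of all windows hold it. It overlaps a CG shown in capitals. The letters GCGGGA (an E2F type, in 20% of windows), GGGGAGG (a Zfp281 type, 19.5%) and CAGCAGG (a Zic type, 10.5%) occur in none of the 3 windows on either strand.

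Library totals were between 18086421 and 35911590 counts for ESC and 32 h in the ribo-depleted set, 28538287 and 36365192 for 16 h, and 19013882 and 28777604 in the polyA set. All 4 genes passed the filter on low counts in every fit. The counts behind a single value were between 137 and 1260 for Dazl, 364 and 2571 for Sohlh2, 110 and 1136 for Dmrt1 and 20 and 256 for Taf7l in the polyA set. In the ribo-depleted set they were between 165 and 905, 221 and 828, 76 and 1026, and 80 and 774 in the same order of genes. The line Zfp281_WT stood apart: 89.0% of 1108 olfactory receptor genes, which ES cells do not use, had a count in it at ESC and 87.0% at 32 h, against 11.3 to 24.8% in the other ESC and 32 h libraries of that kit and 8.94 to 12.5% in the 16 h libraries. At 16 h this line had 8.94%. Changes of the 4 genes, X-linked medians and list counts or medians that rest on it are also given without it. Ehmt1 mRNA was lower in Ehmt1 KO than in WT cells by 2.03 ± 0.17 (SE) on the log2 scale at ESC and by 2.49 ± 0.17 at 32 h (log2 fold changes -2.03 and -2.49), and in double KO cells by 1.76 ± 0.17 and 2.35 ± 0.17 (-1.76 and -2.35). Zfp281 mRNA differed by 0.05 ± 0.11, 0.02 ± 0.08 and 0.19 ± 0.11 between Zfp281 KO and WT cells at the 3 stages in order, and Zic2 mRNA by 0.25 ± 0.39 and 0.41 ± 0.39 in Zic2 KO cells and by -0.05 ± 0.39 and -0.02 ± 0.39 in double KO cells at ESC and 32 h. Whole-gene counts therefore do not show the knockout for these 2 genes, and the genotypes are named as labelled. Of the 10 germ cell markers, 10 had a count. Summed without Dazl they came to 129 to 151 CPM in Zfp281 KO and 136 to 168 CPM in WT libraries at ESC. Of the 8 Sertoli cell markers, Amh reached at most 0.528 CPM in any library, Sox9 1.43, Cldn11 0.643 and Fshr 0.648, and Fshr was at 0 in 23 of 28 libraries. The other 4 reached 78.1 (Wt1), 36.6 (Inhbb), 9.96 (Gata4) and 5.75 CPM (Amhr2) and were at 0 in no library.

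In Zfp281 KO cells the regulators differed from WT in opposite directions. In the naive state Dazl was 2.07-fold and Taf7l 2.25-fold higher in Zfp281 KO than in WT cells, and Dmrt1 was 6.67-fold lower, while Sohlh2 passed the test at no stage. A gene was called where the adjusted p of edgeR's quasi-likelihood test was under 0.05. At ESC 3 of the 4 genes were called against 13.8% of all 18971 genes tested, at 16 h 3 against 28.6% of 15139, and at 32 h 2 against 28.5% of 18971. These shares rest on fits with the line Zfp281_WT. Without it, which leaves a lone WT library at each stage, a larger share of all genes was called at every stage. Calls that remained without that line therefore stand beside a larger share. The median log2 fold change of the 4 genes was 0.73 at ESC, 0.48 at 16 h and -0.06 at 32 h, against -0.04, -0.01 and -0.07 for all genes tested. The 16 h libraries came in a separate table and were normalised and fitted on their own, so the levels set beside the other stages share no scaling.

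At ESC the Dazl level was 21.4 and 21.5 CPM in Zfp281 KO clones 1 and 2, against 12.1 and 8.22 CPM in the WT lines. At 16 h the clones had 29.1 and 30.9 CPM, against 20.9 and 18.8 CPM in WT. At 32 h the clones had 28.9 and 28.7 CPM, against 18.6 and 15.7 CPM in WT. At each stage both KO libraries lay above both WT libraries, and the KO clones were closer to each other than the WT lines. Log2 fold changes of 1.05 ± 0.16 (ESC), 0.60 ± 0.11 (16 h) and 0.75 ± 0.15 (32 h) had an adjusted p of 0.0028, 0.0048 and 0.0056 in that order. Without the line Zfp281_WT it was 0.76 at ESC, 0.52 at 16 h and 0.60 at 32 h, each still called. Leaving out KO clone 1 at 32 h gave 0.70 with an adjusted p of 0.062.

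Taf7l followed the same direction early but not late. At ESC its level was 10.6 and 10.7 CPM in Zfp281 KO clones, against 5.30 and 3.99 CPM in WT lines. At 16 h it was 22.3 and 21.0 CPM in the clones, against 14 and 13.4 CPM in WT. At 32 h it was 21.5 and 23.6 CPM in the clones, against 24.0 and 25.9 CPM in WT. Both KO libraries were above both WT libraries at ESC and 16 h and below them at 32 h. It differed by 1.17 ± 0.14 on the log2 scale in the naive state (adjusted p = 0.0008) and by 0.66 ± 0.11 after 16 h (adjusted p = 0.0036). At 32 h it was -0.15 ± 0.12 and did not pass (adjusted p = 0.39). Without the line Zfp281_WT the values were 0.94 at ESC and 0.63 at 16 h, both called, and -0.13 at 32 h, not called. X-linked genes as a class were shifted in the same comparison. Their median log2 fold change was 0.41 at ESC (683 genes), 0.36 at 16 h (589 genes) and 0.25 at 32 h (683 genes). At ESC 88.9% of them lay below Taf7l, at 16 h 72.3% and at 32 h 34.0%. Without the line Zfp281_WT the X-linked medians were 0.32, 0.24 and 0.20, with 82.3%, 78.1% and 30.9% of X-linked genes below Taf7l, at the 3 stages in that order. The part of the X-linked shift in the Taf7l values was not tested.

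Dmrt1 was the gene of the 4 with the largest difference. Naive Zfp281 KO clones had 2.93 and 2.33 CPM, against 14.7 and 20.7 CPM in WT lines. After 16 h the clones had 5.70 and 4.82 CPM, against 21.8 and 29.2 CPM in WT. After 32 h they had 12.6 and 10.9 CPM, against 25.4 and 29.9 CPM in WT. Every KO library was below every WT library of its stage, and the fold was largest at ESC. The changes of -2.74 ± 0.20 (ESC), -2.28 ± 0.17 (16 h) and -1.23 ± 0.17 (32 h) on the log2 scale had adjusted p-values of 9.2e-05, 8.3e-05 and 0.00073 in that order. It ranked as number 37 of 18971 genes by p at ESC. Without the line Zfp281_WT it was -2.55 at ESC, -2.05 at 16 h and -1.14 at 32 h, and each call remained.

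Sohlh2 in the naive state had 23.7 and 21.7 CPM in Zfp281 KO clones, against 22.6 and 11.0 CPM in the lines WT and Zfp281_WT. Its 16 h levels were 25.2 and 22.7 CPM in the clones, against 23.2 and 13.8 CPM in the WT lines. Its 32 h levels were 23.4 and 19.5 CPM in the clones, against 23.0 and 18.9 CPM in the WT lines. The line named WT lay within the range of the KO clones at each stage, and the line Zfp281_WT was the lowest library at each stage, so the groups overlapped. None of the log2 fold changes of 0.40 ± 0.28 (ESC), 0.37 ± 0.24 (16 h) and 0.03 ± 0.28 (32 h) passed, at adjusted p-values of 0.37, 0.29 and 0.95 in that order. The values at ESC and 16 h depended on the line Zfp281_WT. In a fit without Zfp281_WT, the log2 fold change turned to -0.06 at ESC and -0.13 at 32 h and was 0.05 at 16 h, and with Zfp281_WT as the lone control it was 1.16 at ESC (adjusted p = 0.00072) and 0.80 at 16 h (adjusted p = 6.7e-08).

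**Figure D1:**
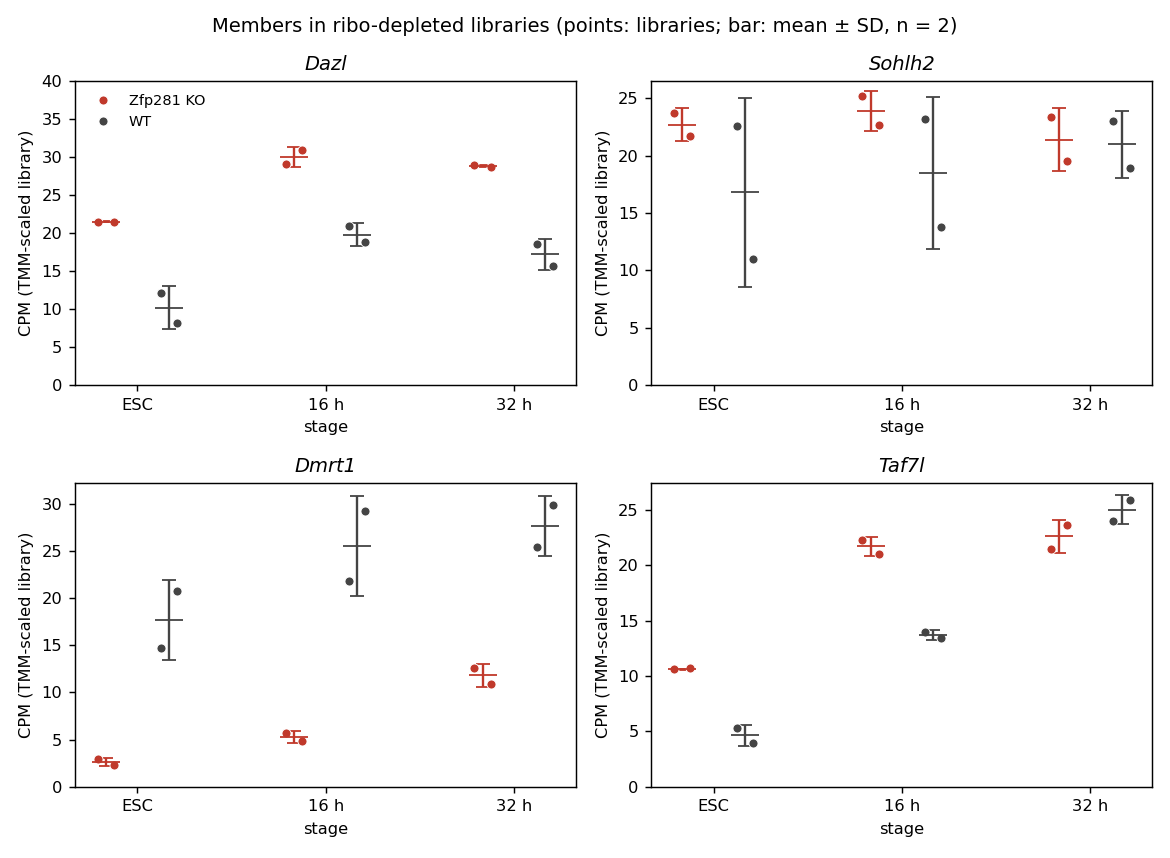
CPM of Dazl, Sohlh2, Dmrt1 and Taf7l in each ribo-depleted library at ESC, 16 h and 32 h, with Zfp281 KO and WT cells drawn apart, points for libraries and bars for group means. Dmrt1 sits below WT in KO cells at every stage (2.63 against 17.7 CPM on average at ESC), and Taf7l starts higher in KO cells but reaches 22.6 CPM at 32 h against 25.0 CPM in WT cells.

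On leaving 2i, Taf7l and Dmrt1 rose in both genotypes, and their response differed between them. In Zfp281 KO cells 2 of the 4 genes were called between 32 h and ESC, against 24.7% of all genes, and in WT cells 3 were called, against 25.9%. Both shares over all genes were larger in a fit without the line Zfp281_WT. The response of Taf7l was 1.08 ± 0.12 on the log2 scale in KO cells (adjusted p = 0.00022) and 2.40 ± 0.13 in WT cells (adjusted p = 2.6e-06). In KO cells the mean was 22.6 ± 1.49 CPM at 32 h and 10.6 ± 0.077 CPM at ESC, and the WT mean was 25.0 ± 1.32 CPM at 32 h and 4.64 ± 0.93 CPM at ESC (SD, n = 2 each). Among X-linked genes, 98.1% lay below Taf7l in the WT response (95% without the line Zfp281_WT). Dmrt1 behaved the other way round, with a response of 2.16 ± 0.20 in KO cells (adjusted p = 7.9e-05) and 0.65 ± 0.17 in WT cells (adjusted p = 0.018). Its mean was 11.8 ± 1.18 CPM at 32 h and 2.63 ± 0.422 CPM at ESC in KO cells, and 27.6 ± 3.18 and 17.7 ± 4.25 CPM in WT cells. The WT response of Dmrt1 lost its call without the ESC library of the line WT (0.41, adjusted p = 0.076) and without the 32 h library of Zfp281_WT (0.53, adjusted p = 0.086). Without both libraries of Zfp281_WT the WT responses were 2.08 for Taf7l and 0.68 for Dmrt1, and the KO responses 1.01 and 2.09, all called.

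The response of the KO minus that of WT was tested directly. It was called for 2 of the 4 genes, against 4.15% of all genes, a share that was also larger without the line Zfp281_WT. The difference was 1.51 ± 0.26 for Dmrt1 (adjusted p = 0.015) and -1.31 ± 0.18 for Taf7l (adjusted p = 0.0063). When Zfp281_WT was left out, the 2 values were 1.41 and -1.07, both called. Single libraries ended the calls, though the values moved little. Without the ESC library of KO clone 1 Taf7l was at -1.33 (adjusted p = 0.077), and without that of KO clone 2 Dmrt1 was at 1.34 and Taf7l at -1.31 (adjusted p = 0.088 each). Without KO clone 1 at 32 h Dmrt1 was at 1.43 (adjusted p = 0.077) and Taf7l at -1.23 (adjusted p = 0.054). X-linked genes had a median difference of -0.13 against 0.04 for all genes, and 4.39% of them lay below Taf7l. With Zfp281_WT left out, that median was -0.17, and 11.3% of X-linked genes lay below Taf7l.

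Dazl had a response of 0.43 ± 0.15 in Zfp281 KO cells (adjusted p = 0.068) and of 0.73 ± 0.16 in WT cells (adjusted p = 0.0081). Without the ESC library of Zfp281_WT the WT value was 0.42 (adjusted p = 0.015), and without the whole line the responses were 0.36 in KO and 0.51 in WT cells, both called. The same line was sampled at both stages, and with the line as a block the KO response of Dazl passed (0.43, adjusted p = 0.0014). The block also raised the number of genes called to 7553 in the KO response, 7525 in the WT response and 2605 for the difference. With only the 2 WT groups in the fit, the WT responses of Dazl (0.70, adjusted p = 0.095) and Dmrt1 (0.62, adjusted p = 0.07) did not pass. The difference between genotypes was -0.31 ± 0.22 for Dazl (adjusted p = 0.66); without the ESC library of the line WT it was -0.73 (adjusted p = 0.019). Sohlh2 gave -0.08 ± 0.28 in KO cells (adjusted p = 0.9) and 0.29 ± 0.28 in WT cells (adjusted p = 0.61), and its WT value turned to -0.08 without the line Zfp281_WT. Its difference of -0.37 ± 0.40 did not pass (adjusted p = 0.85).

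Ehmt1 KO cells had higher Dazl and Sohlh2 in the naive state, by 2.30-fold and 2.66-fold, and of these Sohlh2 also passed at 32 h, where Dmrt1 was lower. At ESC 2 of the 4 genes were called, against 26.9% of all 15667 genes tested in the polyA set, and at 32 h 2, against 26.6%. The Ehmt1 KO, Zic2 KO and double KO cells were all set against the same WT libraries, so their values share those controls.

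Dazl in the naive state had 21.4 and 19.8 CPM in Ehmt1 KO clones, against 6.51 and 11.4 CPM in the lines Ehmt1_WT and Zic2_WT. Its 32 h levels were 15.8 and 14.7 CPM in the clones, against 9.08 and 11.8 CPM in WT. Both KO clones lay above both WT lines at each stage, with the wider gap at ESC. It was higher by 1.20 ± 0.25 on the log2 scale at ESC (adjusted p = 0.0033), while the 0.55 ± 0.24 of the later stage did not pass (adjusted p = 0.12). Sohlh2 had 50.8 and 45.6 CPM in naive Ehmt1 KO clones, against 18 and 18.2 CPM in WT. At 32 h the gene had 65.2 and 46.1 CPM in the clones, against 25.0 and 29.9 CPM in WT. The groups did not overlap at either stage. Both changes passed, 1.41 ± 0.20 on the log2 scale at ESC (adjusted p = 0.00028) and 1.02 ± 0.20 later (adjusted p = 0.0026).

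Dmrt1 had 13.8 and 5.80 CPM in naive Ehmt1 KO clones, against 22.9 and 16.4 CPM in WT. By 32 h it had 12.8 and 11.0 CPM in the clones, against 40.9 and 40.8 CPM in WT. Every KO library was below every WT library of its stage, and clone 2 at ESC was the lowest of the 16 polyA libraries. On the log2 scale the naive change of -1.0 ± 0.45 did not pass (adjusted p = 0.12), and that of -1.78 ± 0.45 after 32 h did (adjusted p = 0.01). Without clone 1 the ESC value was -1.75 (adjusted p = 0.043), and without clone 2 the 32 h value was -1.68 (adjusted p = 0.055). Taf7l had 1.56 and 1.27 CPM in naive Ehmt1 KO clones, against 1.38 and 1.90 CPM in WT. Its later levels were 3.49 and 5.22 CPM in the clones, against 10.5 and 8.05 CPM in WT. The groups overlapped at ESC and did not at 32 h, where the KO clones were lower. Neither the log2 change of -0.21 ± 0.61 in naive cells (adjusted p = 0.83) nor that of -1.08 ± 0.51 later passed (adjusted p = 0.14).

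Few genes were called between Zic2 KO and WT cells when all polyA groups were fitted together. Dazl and Sohlh2 were among those few in the naive state. Over all 15667 genes 43 were called at ESC (0.274%) and 12 at 32 h (0.0766%). At ESC 2 of the 4 genes were among them, with Sohlh2 ranked 4 and Dazl 13 by p. At 32 h only Sohlh2 was, again ranked 4. The number of calls depended on the fit. DESeq2 called 281 genes at ESC and 175 at 32 h, and edgeR with only the groups compared called 207 and 1516. Leaving out any 1 of the 4 libraries compared gave between 0 and 214 calls over all genes at ESC and 2 at 32 h.

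Sohlh2 had 46.1 and 57.5 CPM in naive Zic2 KO clones, against 18 and 18.2 CPM in WT. At 32 h the gene had 74.7 and 87.4 CPM in the clones, against 25.0 and 29.9 CPM in WT. The lowest KO library was above the highest WT library at both stages. That came to 1.52 ± 0.20 on the log2 scale in naive cells (adjusted p = 0.014) and 1.56 ± 0.20 later (adjusted p = 0.012). The ESC call was lost without Ehmt1_WT (1.51, adjusted p = 0.13), without clone 1 (1.68, adjusted p = 0.08) and without clone 2 (1.37, adjusted p = 0.16). The 32 h call was lost on leaving out any of its 4 libraries, with values between 1.44 and 1.70 and adjusted p between 0.051 and 0.29.

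Dazl had 26.1 and 30.9 CPM in naive Zic2 KO clones, against 6.51 and 11.4 CPM in WT. By 32 h it had 13.6 and 12.6 CPM in the clones, against 9.08 and 11.8 CPM in WT. The KO clones were the higher pair at both stages, by a wide margin at ESC and a narrow one at 32 h. The naive log2 change was 1.67 ± 0.25 (adjusted p = 0.016), and the later one of 0.33 ± 0.24 did not pass (adjusted p = 0.76). The ESC call was lost without Ehmt1_WT (1.32, adjusted p = 0.15), without clone 1 (1.79, adjusted p = 0.099) and without clone 2 (1.56, adjusted p = 0.21). When the other genotypes were left out of the fit, 207 genes were called at ESC and 1516 at 32 h.

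Dmrt1 had 45.8 and 52.8 CPM in naive Zic2 KO clones, against 22.9 and 16.4 CPM in WT. Its later levels were 37.0 and 33.2 CPM in the clones, against 40.9 and 40.8 CPM in WT. The KO clones were thus above WT at ESC and below it at 32 h, and neither value passed (log2 fold change 1.33 ± 0.44, adjusted p = 0.28, and -0.22 ± 0.42, adjusted p = 0.96). Fitted without the other genotypes, the ESC value was 1.35 with an adjusted p of 0.021. Taf7l had 2.56 and 2.37 CPM in naive Zic2 KO clones, against 1.38 and 1.90 CPM in WT. At 32 h the gene had 5.31 and 5.86 CPM in the clones, against 10.5 and 8.05 CPM in WT. It too was higher than WT at ESC and lower at 32 h without overlap, at 0.59 ± 0.58 (adjusted p = 0.8) and -0.73 ± 0.51 (adjusted p = 0.73). Fitted without the other genotypes, the 32 h value was -0.72 with an adjusted p of 0.024.

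**Figure D2:**
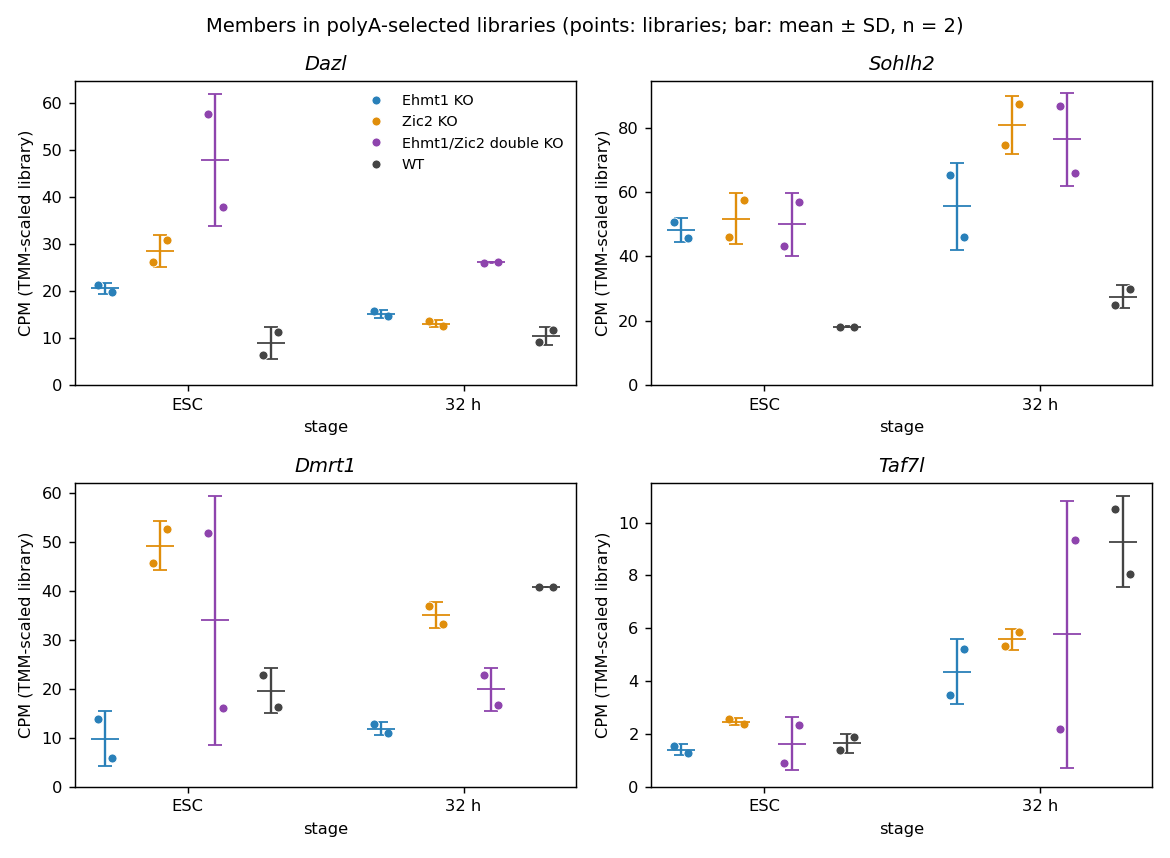
CPM of the 4 genes in each polyA library at ESC and 32 h for Ehmt1 KO, Zic2 KO, double KO and WT cells, with points for libraries and bars for group means. Sohlh2 averages between 48.2 and 81.0 CPM in the KO groups against 18.1 and 27.5 CPM in WT cells, and the double KO clones lie far apart for Dmrt1 and Taf7l.

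Cells labelled as lacking both Ehmt1 and Zic2 had the highest mean Dazl level of the polyA set, 5.34-fold above WT at ESC, while their Sohlh2 did not pass the test against either single knockout. Against WT, 2 of the 4 genes were called at ESC, where 39.4% of all genes were, and 2 at 32 h, where 39.1% were. Dazl had 57.8 and 38.0 CPM in naive double KO clones, against 6.51 and 11.4 CPM in WT. By 32 h it had 26.0 and 26.2 CPM in the clones, against 9.08 and 11.8 CPM in WT. Both clones lay above both WT lines at each stage. Its log2 changes were 2.42 ± 0.25 in naive cells (adjusted p = 1.9e-05) and 1.32 ± 0.24 later (adjusted p = 0.0011). Sohlh2 had 43.1 and 56.9 CPM in naive double KO clones, against 18 and 18.2 CPM in WT. Its later levels were 86.7 and 66.1 CPM in the clones, against 25.0 and 29.9 CPM in WT. It was higher in each double KO library, at 1.47 ± 0.20 (adjusted p = 0.00016) and 1.48 ± 0.20 (adjusted p = 0.00014).

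The double KO clones disagreed on Dmrt1 and Taf7l. Dmrt1 in the naive state had 51.9 CPM in clone 1 and 16.1 CPM in clone 2, against 22.9 and 16.4 CPM in WT. At 32 h the gene had 22.9 and 16.8 CPM in the clones, against 40.9 and 40.8 CPM in WT. The clones straddled the WT lines at ESC and lay below them at 32 h. Neither the naive log2 change of 0.79 ± 0.43 (adjusted p = 0.16) nor the later one of -1.04 ± 0.43 passed (adjusted p = 0.072). Without clone 2 the ESC value was 1.39 (adjusted p = 0.0076). Fitted without the single knockouts, the 32 h value was -1.03 (adjusted p = 0.0061). Taf7l in the naive state had 0.917 CPM in clone 1 and 2.34 CPM in clone 2, against 1.38 and 1.90 CPM in WT. By 32 h it had 2.19 and 9.34 CPM in the clones, against 10.5 and 8.05 CPM in WT. Clone 1 was below both WT lines at each stage, and clone 2 was above them at ESC and between them at 32 h. The log2 changes of -0.02 ± 0.60 in naive cells (adjusted p = 0.98) and -0.69 ± 0.50 later (adjusted p = 0.3) did not pass, and without clone 2 the 32 h value was -2.05 (adjusted p = 0.006).

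Set against the single knockouts, Dazl was higher in the double KO than in the Zic2 KO at both stages, by 0.75 ± 0.24 on the log2 scale in the naive state (adjusted p = 0.027) and by 0.99 ± 0.24 later (adjusted p = 0.0067). It was the only one of the 4 genes called, against 34.2% and 35.9% of all genes. The ESC call was lost without Zic2 KO clone 1 (0.62, adjusted p = 0.18) or clone 2 (0.85, adjusted p = 0.078), without double KO clone 1 (0.41, adjusted p = 0.26) and with only those groups in the fit (0.77, adjusted p = 0.052). The 32 h call was lost without Zic2 KO clone 2 (0.94, adjusted p = 0.058). Against the Ehmt1 KO, Dazl differed by 1.22 ± 0.24 in the naive state (adjusted p = 0.091) and by 0.77 ± 0.24 later (adjusted p = 0.21). None of the 4 genes was called by edgeR in that comparison, where 0.0957% of all genes were at ESC and 0.223% at 32 h, although 2 had an unadjusted p under 0.05 at each stage. DESeq2 called Dazl at ESC (1.22, adjusted p = 0.00071) and 0 of the 4 at 32 h. Sohlh2 differed from the Ehmt1 KO by 0.05 in the naive state (adjusted p = 0.92) and by 0.46 ± 0.19 later (adjusted p = 0.35), and from the Zic2 KO by -0.05 (adjusted p = 0.86) and -0.09 (adjusted p = 0.76). Dmrt1 differed from the Zic2 KO by -0.53 in the naive state (adjusted p = 0.35) and by -0.82 ± 0.43 later (adjusted p = 0.15), and from the Ehmt1 KO by 1.79 ± 0.45 (adjusted p = 0.19) and 0.74 (adjusted p = 0.5). Without double KO clone 1, Dmrt1 at ESC differed from the Zic2 KO by -1.63 (adjusted p = 0.0091); without clone 2 it differed from the Ehmt1 KO by 2.38 (adjusted p = 0.011).

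**Figure D3:**
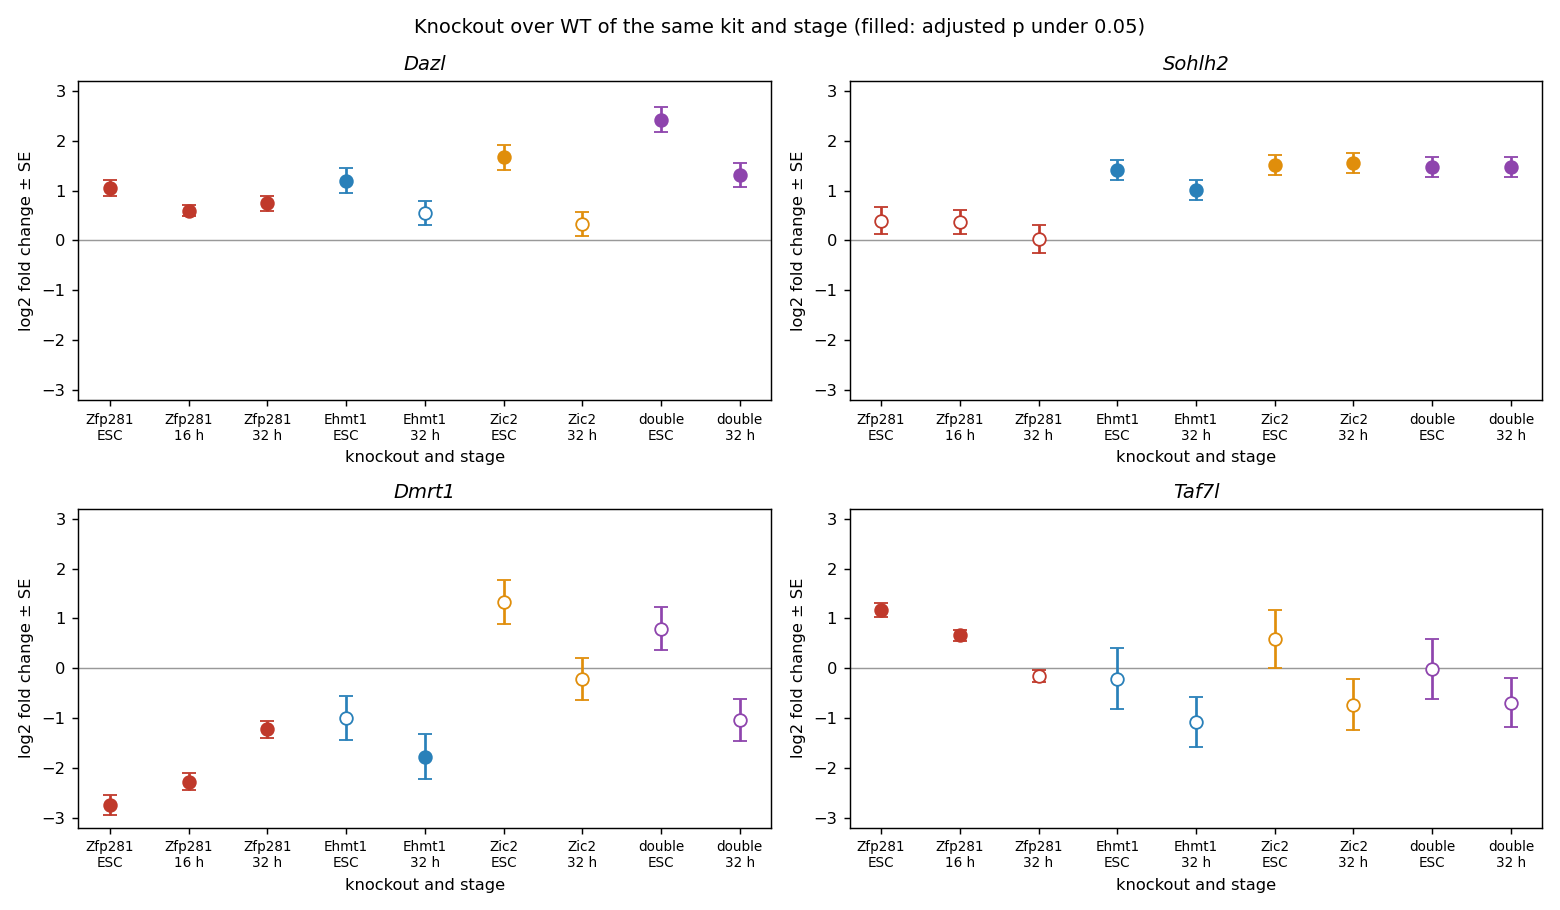
Log2 fold changes of KO against WT with their standard errors for the 4 genes, by genotype and stage, filled where the adjusted p was under 0.05. Dmrt1 in Zfp281 KO cells at ESC is the largest fall (-2.74) and Dazl in double KO cells at ESC the largest rise (2.42).

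In the polyA set the response to 2i withdrawal was largest for Taf7l in each genotype. In WT cells 2 of the 4 genes were called between 32 h and ESC, against 35.7% of all genes. Taf7l had a WT response of 2.50 ± 0.56 (adjusted p = 0.004), and 93.1% of X-linked genes lay below it. Sohlh2 had 0.60 ± 0.20 (adjusted p = 0.034), Dmrt1 1.06 ± 0.43 (adjusted p = 0.075) and Dazl 0.22 ± 0.25 (adjusted p = 0.53). The Taf7l call was lost without Ehmt1_WT at ESC (2.28, adjusted p = 0.052), and that of Sohlh2 on leaving out any of the 4 libraries (0.46 to 0.73, adjusted p between 0.052 and 0.2). With the line as a block the Dmrt1 response passed (1.07, adjusted p = 0.018).

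Dazl was lower at 32 h than at ESC in Zic2 KO and double KO cells. Its response was -0.43 ± 0.24 in Ehmt1 KO cells (adjusted p = 0.22), -1.12 ± 0.24 in Zic2 KO cells (adjusted p = 0.0034) and -0.88 ± 0.23 in double KO cells (adjusted p = 0.025). Dazl averaged 13.1 ± 0.675 CPM at 32 h and 28.5 ± 3.39 CPM at ESC in Zic2 KO cells, and 26.1 ± 0.151 CPM at 32 h and 47.9 ± 14 CPM at ESC in double KO cells (SD, n = 2 each). In the Zic2 KO response 2 of the 4 genes were called, against 30.9% of all genes, and in the double KO response 2, against 14.4%. In the Ehmt1 KO response edgeR called 0 of the 4, where 22.5% of all genes were called; Taf7l had an unadjusted p under 0.05, and DESeq2 called it (1.64, adjusted p = 0.023). The double KO call of Dazl was lost without clone 1 at ESC (-0.56, adjusted p = 0.22) or at 32 h (-0.89, adjusted p = 0.093), without clone 2 at 32 h (-0.88, adjusted p = 0.11) and with only those groups in the fit (-0.87, adjusted p = 0.12).

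The Taf7l responses had the opposite sign, with 1.62 ± 0.57 in Ehmt1 KO (adjusted p = 0.06), 1.18 ± 0.54 in Zic2 KO (adjusted p = 0.12) and 1.83 ± 0.56 in double KO cells (adjusted p = 0.045). With the line as a block the first pair passed (1.59, adjusted p = 0.00075, and 1.18, adjusted p = 0.0023). The double KO libraries of the 2 stages overlapped, and the call was lost without clone 1 at ESC (1.27, adjusted p = 0.29), without clone 2 at 32 h (0.43, adjusted p = 0.65), with only those groups in the fit (1.83, adjusted p = 0.29) and without the filter on low counts (adjusted p = 0.073). Sohlh2 responded by 0.21 in Ehmt1 KO (adjusted p = 0.5), 0.64 ± 0.20 in Zic2 KO (adjusted p = 0.024) and 0.61 ± 0.20 in double KO cells (adjusted p = 0.054). The Zic2 KO call was lost without clone 1 at ESC (0.45, adjusted p = 0.24), clone 2 at ESC (0.76, adjusted p = 0.055) or clone 2 at 32 h (0.53, adjusted p = 0.16), and the double KO value passed with the line as a block (0.61, adjusted p = 0.011). Dmrt1 responded by 0.27 (adjusted p = 0.72), -0.49 ± 0.42 (adjusted p = 0.42) and -0.78 ± 0.43 (adjusted p = 0.26) in the same 3 genotypes. With only those groups in the fit its Zic2 KO value was -0.51 (adjusted p = 0.00025), and without double KO clone 2 at ESC its double KO value was -1.39 (adjusted p = 0.015).

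In the polyA set none of the 4 genes was called for a difference from WT in its response when all groups were fitted together without the line block. In that test 1.86% of all genes were called for the Ehmt1 KO, 0.0% for the Zic2 KO and 5.29% for the double KO. For the Ehmt1 KO, 0 of the 4 had an unadjusted p under 0.05 and DESeq2 called 0. For the Zic2 KO, 2 had one and DESeq2 called 0, while over all genes edgeR called 0, 725 had an unadjusted p under 0.05 and DESeq2 called 24. For the double KO, 2 had one and DESeq2 called Dazl. The difference for Dazl was -0.65 in Ehmt1 KO (adjusted p = 0.45), -1.34 ± 0.35 in Zic2 KO (adjusted p = 0.65) and -1.10 ± 0.34 in double KO cells (adjusted p = 0.084). With the line as a block it was -1.37 (adjusted p = 0.034) in the Zic2 KO and -1.10 (adjusted p = 0.0063) in the double KO, and that of Dmrt1 was -1.67 (adjusted p = 0.031) in the double KO. Under the block 1361, 50 and 2611 genes were called over all genes for the 3 genotypes in that order. Without the block the Dmrt1 differences were -0.78 (adjusted p = 0.68), -1.55 ± 0.61 (adjusted p = 0.99) and -1.83 ± 0.61 (adjusted p = 0.1). With only the groups compared in the fit, Dmrt1 was called for the Zic2 KO (-1.57, adjusted p = 0.018).

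**Figure D4:**
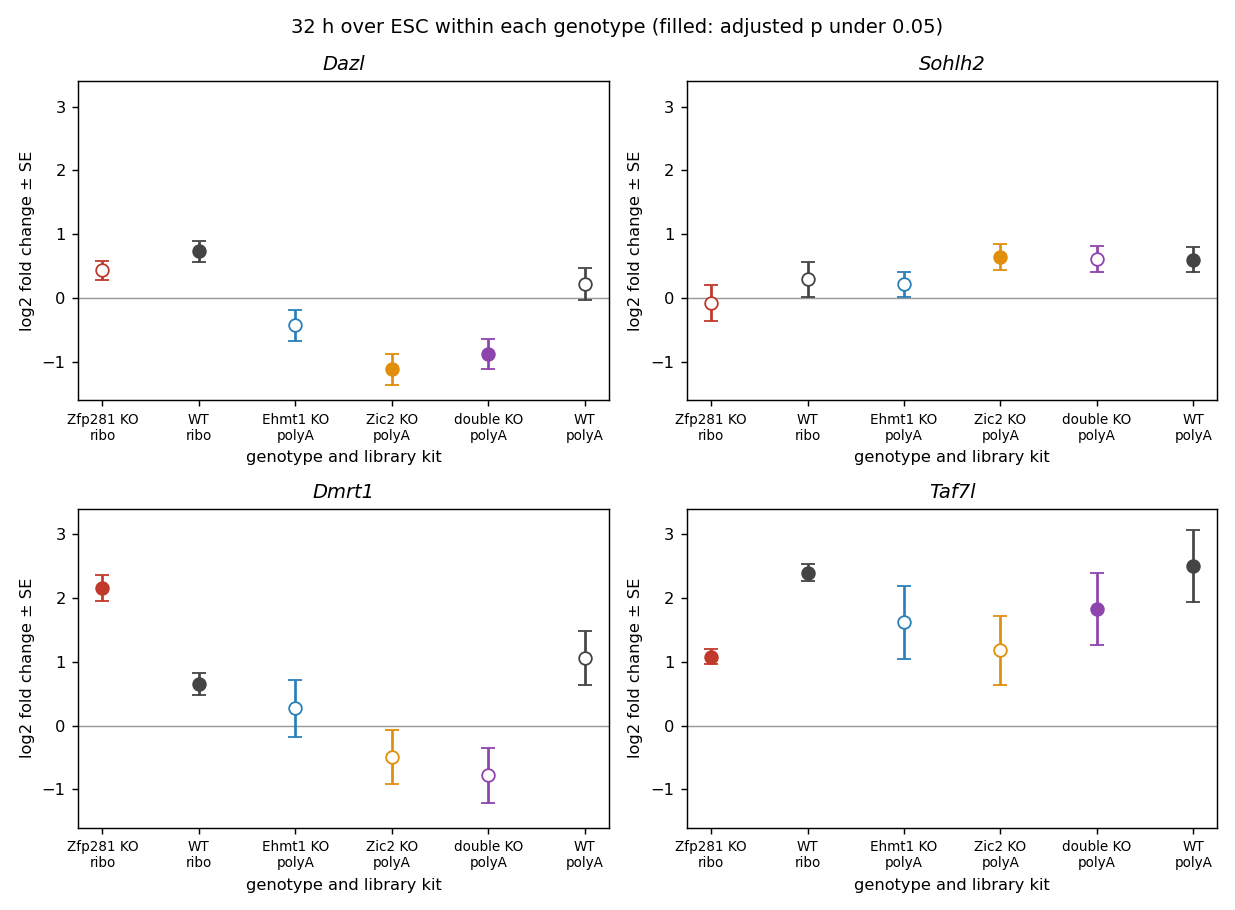
Log2 fold changes of 32 h against ESC with their standard errors for the 4 genes in every genotype, the kits drawn apart, filled where the adjusted p was under 0.05. Taf7l is above 0 in each of the 6 responses (1.08 to 2.50), whereas Dazl is above 0 in the ribo-depleted set and in polyA WT cells and below 0 in the 3 polyA knockouts.

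The order of the group means differed from gene to gene. In the ribo-depleted set at ESC and 32 h, Dazl ran down through Zfp281 KO at 32 h (28.8 CPM) and ESC (21.5), then WT at 32 h (17.2) and ESC (10.2), and no neighbours in that order overlapped. For Sohlh2 each pair of neighbours overlapped, between 22.7 and 16.8 CPM. Dmrt1 ran down through WT at 32 h (27.6) and ESC (17.7), then Zfp281 KO at 32 h (11.8) and ESC (2.63), with no overlap between neighbours. Taf7l ran down through WT (25.0) and Zfp281 KO at 32 h (22.6), then Zfp281 KO (10.6) and WT at ESC (4.64), again with no overlap. The 16 h means, on their own scaling, were 30.0 CPM in Zfp281 KO and 19.8 CPM in WT cells for Dazl, 23.9 and 18.5 for Sohlh2, 5.26 and 25.5 for Dmrt1, and 21.7 and 13.7 for Taf7l.

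In the polyA set Dazl was highest in double KO cells at ESC (47.9 ± 14 CPM), followed by Zic2 KO cells at ESC (28.5) and double KO cells at 32 h (26.1), which overlapped, and was lowest in WT cells at 32 h and ESC (10.4 and 8.97), which overlapped too. Sohlh2 was highest in Zic2 KO and double KO cells at 32 h (81.0 and 76.4, overlapping) and lowest in WT cells at 32 h (27.5) and ESC (18.1), apart from each other and from every knockout. Dmrt1 was highest in Zic2 KO cells at ESC (49.3) and lowest in Ehmt1 KO cells at 32 h and ESC (11.9 and 9.78, overlapping). Taf7l was highest in WT cells at 32 h (9.27), where it overlapped with double KO cells at 32 h (5.77 ± 5.06), and lowest in Ehmt1 KO cells at ESC (1.41). Per kilobase of exon, on which levels of different genes can be set side by side, the highest group mean of the polyA set was 34.3 CPM per kb for Sohlh2, 19.0 for Dmrt1, 12.5 for Dazl and 4.13 for Taf7l.

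Paralogs of the 4 genes other than Taf7 had low levels, and Dmrtb1 averaged 4.03 CPM in naive Zfp281 KO cells, above the 2.63 CPM of Dmrt1 there. Group means ran from 0.481 to 6.71 CPM for Boll, a relative of Dazl in the DAZ family, and from 0.0153 to 0.521 CPM for Sohlh1, the partner of Sohlh2. Among the DM domain genes Dmrtb1 had 1.14 to 7.61 CPM, Dmrt2 0.083 to 1.35, Dmrt3 0.182 to 2.27, Dmrta1 0.0964 to 0.8, Dmrta2 0.0757 to 2.93 and Dmrtc2 0.197 to 1.3 CPM. Taf7 had 146 to 560 CPM. Of 11 listed paralogs and TFIID relatives, 2 rose and 2 fell in Ehmt1 KO cells at ESC and likewise in double KO cells, where 26.9% and 39.4% of all genes were called, and 0 were called in Zic2 KO cells at either stage, with 1 and 2 at an unadjusted p under 0.05 and 0 by DESeq2. In Zfp281 KO cells 0 of 10 tested were called at ESC (3 at an unadjusted p under 0.05 and 1 by DESeq2), 0 rose and 2 of 8 fell at 16 h, and 1 rose and 3 fell at 32 h, against 13.8%, 28.6% and 28.5% of all genes called. The median log2 fold change of those tested was -0.40 at ESC, -0.37 at 16 h and -0.60 at 32 h. In a fit without Zfp281_WT it was -0.30, -0.46 and -0.49 in that order, against 0.01, 0.01 and 0.02 over all genes. Boll rose by 2.17 ± 0.39 (adjusted p = 0.0013) in Ehmt1 KO and by 2.74 ± 0.38 (adjusted p = 0.00017) in double KO cells at ESC, and fell by 1.43 ± 0.34 in Zfp281 KO cells at 32 h (log2 fold change -1.43, adjusted p = 0.012). Taf4b, a TFIID subunit of germ cells, rose by 0.69 ± 0.11 in Ehmt1 KO cells at ESC (adjusted p = 0.0005).

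Germline genes known to be silenced in somatic cells by promoter methylation or PRC1.6 were listed beside the regulators (18 genes, none of them among the 4, with meiosis and piRNA pathway genes beside others such as the ADP/ATP carrier gene Slc25a31 and the tubulin gene Tuba3a). They rose on leaving 2i: 14 of 18 rose and 0 fell in WT cells of the ribo-depleted set (median log2 fold change 1.39, against 0.02 over all genes), and 12 rose and 0 fell in polyA WT cells (1.55, against 0.01), where 25.9% and 35.7% of all genes were called. Without the line Zfp281_WT, the median of the list in the ribo-depleted WT response was 1.42, against 0.0 over all genes. Examples are Mael, a piRNA pathway factor (2.06 ± 0.11, adjusted p = 1.8e-06), and the meiotic chromosome protein gene Sycp3 (1.64 ± 0.10, adjusted p = 5.8e-06), both in the ribo-depleted set. In Zfp281 KO against WT cells 4 rose and 4 fell at ESC, 5 rose and 7 of 17 fell at 16 h, and 4 rose and 5 fell at 32 h, beside 13.8%, 28.6% and 28.5% of all genes called. Without that line 8 rose and 6 fell at ESC, 5 rose and 7 fell at 16 h, and 7 rose and 7 fell at 32 h, beside 33.6%, 32.2% and 48.2% of all genes. The risers included Hormad1 (3.13 ± 0.26, adjusted p = 0.00031) and the meiotic cohesin gene Smc1b (2.26 ± 0.21, adjusted p = 0.00025) at ESC, while Sycp3 fell by 1.56 ± 0.10 at 32 h (log2 fold change -1.56, adjusted p = 1.6e-05).

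In Ehmt1 KO cells 8 of the 18 rose and 1 fell at ESC (median 0.44, against -0.01 over all genes), and 4 rose and 6 fell at 32 h, beside 26.9% and 26.6% of all genes called. Double KO cells had 9 rising and 2 falling at ESC (median 0.87, against 0.0) and 4 and 5 at 32 h, beside 39.4% and 39.1% of all genes called. Asz1, a piRNA pathway gene, had 168 and 231 counts in Ehmt1 KO libraries at ESC, against 0 and 1 in WT libraries. Smc1b rose by 4.55 ± 0.57 (adjusted p = 0.0001) in Ehmt1 KO and by 5.48 ± 0.57 (adjusted p = 2e-05) in double KO cells at ESC. In Zic2 KO cells edgeR called 0 of the 18 at ESC and at 32 h, with 3 and 1 at an unadjusted p under 0.05 and 0 by DESeq2 at each stage.

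**Figure D5:**
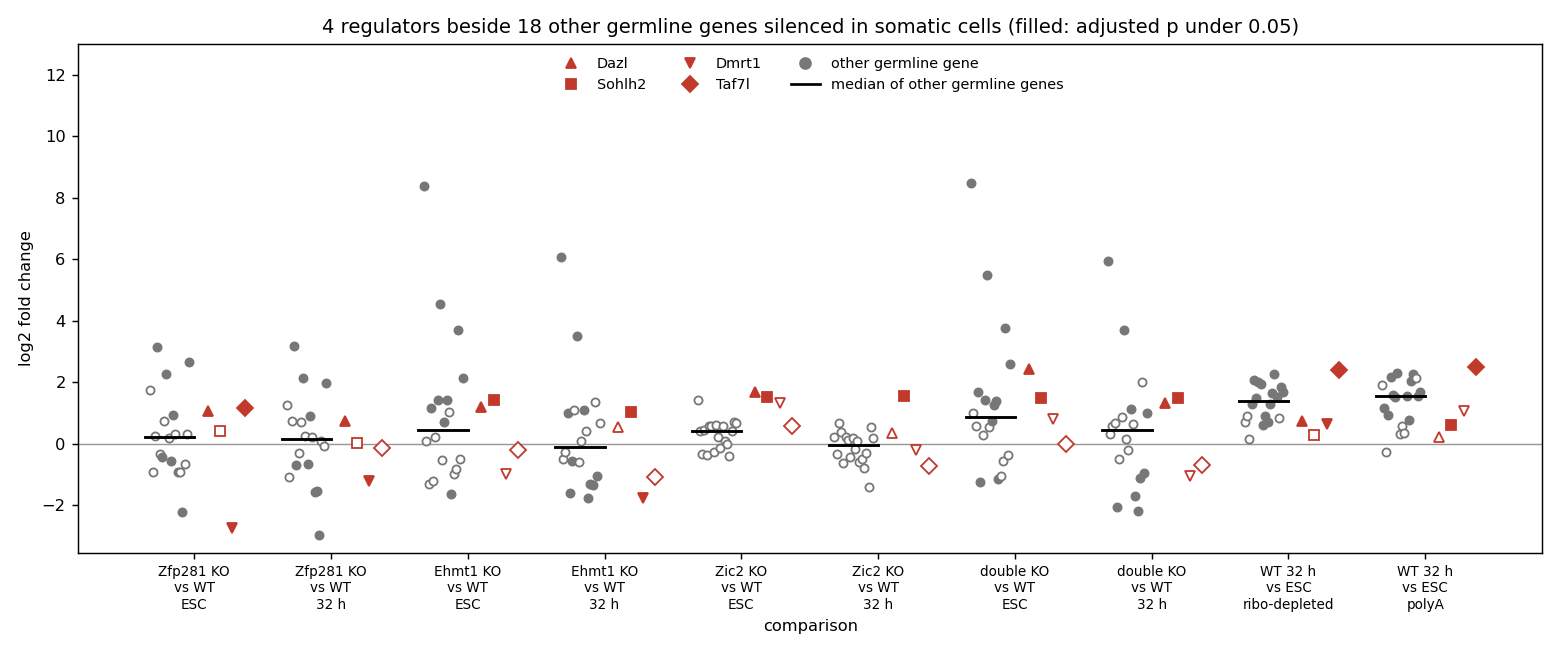
Log2 fold changes of the 18 listed germline genes silenced in somatic cells, 1 point per gene, beside the 4 regulators, for KO against WT at ESC and 32 h and for 32 h against ESC in WT cells, filled where the adjusted p was under 0.05. Black bars are medians of the list. The list sits above 0 in the WT responses (medians 1.39 and 1.55) and spreads to both sides of 0 in Zfp281 KO cells, where 4 rose and 4 fell at ESC.

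Other germ cell regulators (26 listed) moved in both directions. In Zfp281 KO cells 3 rose and 3 of 25 tested fell at ESC, 5 rose and 6 of 21 fell at 16 h, and 5 rose and 6 of 25 fell at 32 h, beside 13.8%, 28.6% and 28.5% of all genes called. The median log2 fold change of those tested was -0.30 at ESC, 0.02 at 16 h and -0.25 at 32 h. When Zfp281_WT was left out, it was 0.08, 0.24 and 0.20 in that order, against 0.01, 0.01 and 0.02 over all genes. Ddx4, the germ cell RNA helicase, fell by 0.81 ± 0.10 at ESC (log2 fold change -0.81, adjusted p = 0.0011), and Stra8, a gene of meiotic entry, rose by 2.53 ± 0.21 at 16 h (adjusted p = 0.00011). In Ehmt1 KO cells 5 rose and 3 of 23 fell at ESC and 6 and 3 did so at 32 h, beside 26.9% and 26.6% of all genes called. In double KO cells 7 rose and 4 fell at ESC and 7 and 3 at 32 h, beside 39.4% and 39.1% of all genes, with Prdm14, a factor of naive cells and primordial germ cells, up by 3.54 ± 0.26 at 32 h (adjusted p = 1.5e-06). In Zic2 KO cells edgeR called 0 of 23 at each stage, with 5 and 3 at an unadjusted p under 0.05 and 1 and 0 by DESeq2. The median log2 fold change of the 23 was 0.17 at ESC and 0.09 at 32 h. Among them Stra8 averaged 24.0 CPM in Zic2 KO and 0.835 CPM in WT cells at ESC. At 32 h it averaged 46.0 and 8.80 CPM. Its libraries did not overlap at either stage, though edgeR did not call it.

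Genes of the silencing machinery were listed as 15 PRC1.6 subunits and H3K9 methyltransferases and 8 DNA methylation genes. In Zfp281 KO cells 2 of the 15 rose and 2 fell at ESC, 3 rose and 5 fell at 16 h, and 4 rose and 3 fell at 32 h, beside 13.8%, 28.6% and 28.5% of all genes called. The median log2 fold change of the 15 was 0.02, -0.08 and 0.05 in that order of stages. With Zfp281_WT left out it was -0.10, -0.06 and -0.06, against 0.01, 0.01 and 0.02 over all genes. The de novo DNA methyltransferase Dnmt3a was lower by 1.43 ± 0.10 at ESC (log2 fold change -1.43, adjusted p = 8.2e-05), by 2.30 ± 0.10 at 16 h (-2.30, adjusted p = 1e-05) and by 1.55 ± 0.10 at 32 h (-1.55, adjusted p = 1.5e-05). Of the 8 DNA methylation genes 2 rose and 3 fell at ESC in those cells, 1 and 4 at 16 h and 4 and 2 at 32 h. Their median log2 fold changes at those stages were -0.06, -0.11 and 0.19. Without the line Zfp281_WT they were -0.22, -0.15 and 0.11. In Ehmt1 KO cells 0 of the 15 rose and 3 fell at ESC, namely Ehmt1 itself, E2f6 (-0.59 ± 0.13, adjusted p = 0.0045) and Pcgf6 (-0.33 ± 0.09, adjusted p = 0.02), and 2 rose and 3 fell at 32 h. In double KO cells 0 rose and 5 fell at ESC, and 2 rose and 5 fell at 32 h. At ESC these shares were below those over all genes, which were 26.9% in Ehmt1 KO and 39.4% in double KO cells. At 32 h the shares over all genes were 26.6% and 39.1%. The falls counted at both stages include Ehmt1 itself, the gene targeted in these cells, so no excess is read from the 32 h counts. In Zic2 KO cells edgeR called 0 of the 15 at each stage (1 and 2 at an unadjusted p under 0.05, 0 by DESeq2), and of the 8 it called Dnmt3l, a cofactor of de novo methylation, at ESC (-1.67 ± 0.24, adjusted p = 0.016).

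Genes of the naive and of the formative state were listed beside the regulators. Of 12 naive state genes, 0 rose and 10 fell on leaving 2i in ribo-depleted WT cells, and 0 rose and 11 fell in polyA WT cells. Of 10 formative state genes 10 and 9 rose, where 25.9% and 35.7% of all genes were called. Against WT at ESC, 2 naive genes were higher and 0 lower in Zfp281 KO cells, beside 13.8% of all genes called. Ehmt1 KO cells had 3 higher and 2 lower there (26.9%), and double KO cells 3 and 1 (39.4%). At 32 h, 9 were higher and 1 lower in Zfp281 KO cells (28.5%). Ehmt1 KO cells had 9 higher and 0 lower at that stage (26.6%), and double KO cells 11 and 1 (39.1%). At 16 h in Zfp281 KO cells 9 naive genes were higher and 1 lower, and 8 formative genes were lower. There 28.6% of all genes were called. In a fit without Zfp281_WT, the median log2 fold change of the ribo-depleted WT response was -2.13 for naive and 2.46 for formative genes. Over all genes it was 0.0. Naive genes in Zfp281 KO against WT cells had a median of 0.22 at ESC, 0.64 at 16 h and 1.04 at 32 h, against 0.01, 0.01 and 0.02. With that line kept, the ESC median was 0.43, against -0.04 over all genes. More naive genes were called at ESC without the line, in both directions, as were more of all genes. In Zic2 KO cells edgeR called 0 of the 12 at each stage (1 and 6 at an unadjusted p under 0.05, 1 and 3 by DESeq2). Over all genes it called 0.274% and 0.0766%. The part of the change of state in the values of the 4 regulators was not tested. In bulk RNA, fewer cells that express a gene and less of its RNA per cell cannot be told apart. Summed germ cell markers without Dazl came to 180 to 267 CPM in Ehmt1 KO, 278 to 279 in Zic2 KO, 226 to 527 in double KO and 202 to 203 CPM in WT libraries at ESC. Of these, Dppa3 averaged 42.5, 14.6, 153 and 1.99 CPM in those groups in that order, and Kit 68.8, 138, 108 and 71.0 CPM. The clones lay far apart for Dppa3, at 10.3 and 74.6 CPM in Ehmt1 KO and 74.6 and 231 CPM in double KO cells. Kit had 51.4 and 164 CPM in the double KO clones. Other markers were lower than in WT in Ehmt1 KO and double KO cells. Nanos3 averaged 12.2 and 10.4 CPM there, against 22.7 CPM in WT, and Ddx4 8.39 and 8.28 CPM, against 13.6 CPM. With Dazl counted, 4 of the 10 markers rose and 1 fell in Ehmt1 KO cells at ESC, beside 26.9% of all genes called. In Zic2 KO cells 1 rose and 0 fell (0.274%), and in double KO cells 4 rose and 3 fell (39.4%). Summed Sertoli cell markers were 4.86 to 5.7, 15.1 to 15.4, 3.9 to 7.1 and 13.6 to 16.7 CPM in the same groups, and 15.9 to 16.2 CPM in Zfp281 KO and 8.45 to 11.3 CPM in WT libraries of the ribo-depleted set at ESC.

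The genes whose group means moved most like those of each regulator were sought over the 14 groups, on log2(CPM + 1) centred within each kit, among 10520 genes with a group mean of at least 5 CPM in each kit. For Taf7l they included the ERK phosphatase gene Dusp6 (Pearson r = 0.928) and the transporter gene Slc22a23 (0.927). Dmrt1 was closest to Cyth3 (0.913), Fip1l1 (0.903) and the diacylglycerol kinase gene Dgka (0.885). Dazl was closest to the ubiquitin ligase gene Peli1 (0.894), Lmbrd2 (0.883) and Sntb2 (0.877). Sohlh2 was closest to Pdpr (0.826), Frat2 (0.809) and the linker histone gene H1f10 (0.809). Among the 4 themselves the highest r was 0.52, between Dazl and Sohlh2, and Dmrt1 had -0.11 with Dazl, -0.12 with Sohlh2 and 0.16 with Taf7l. The values differed by kit: Dazl with Sohlh2 had 0.83 over the 6 ribo-depleted and 0.52 over the 8 polyA groups, Dazl with Taf7l 0.77 and -0.38, Sohlh2 with Taf7l 0.69 and 0.22, and Sohlh2 with Dmrt1 -0.68 and -0.01. The groups share kits and WT lines, so these values describe the 14 groups and carry no p. The 16 h groups were scaled on their own, so values over the 14 or the 6 ribo-depleted groups mix separate scalings.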

How the data were processed

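RNA was sequenced from 28 libraries, 12 ribo-depleted (Ribo-Zero and ScriptSeq) and 16 polyA (TruSeq), per the labels' protocols. The authors deposited whole-number counts per Entrez gene, in 1 table for ESC and 32 h and another for 16 h, and 0 columns were left unmatched to a sample. Build GRCm38 (mm10) and edgeR are named in the submitters' processing notes; which aligner, counter and strand setting were used is not given in the sources used here, so reads of overlapping or near-identical genes may be split. The kit of the lines titled WT was read from the labels. RefSeq symbols matched 24061 of 24116 gene IDs, and 55 had none.

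Counts were fitted in R 4.3.3 with edgeR 4.0.16 (limma 3.58.1) in 3 separate fits: ribo-depleted ESC and 32 h (18971 genes), ribo-depleted 16 h (15139) and polyA (15667). Low counts were removed with filterByExpr (a count of at least 10 and a total of at least 15), TMM scaled the libraries, and the groups of a fit shared 1 robust quasi-likelihood estimate of the spread. Every adjusted p is from that quasi-likelihood test with Benjamini-Hochberg adjustment over all genes of the fit, unless DESeq2 is named, and 0.05 was the threshold over 23 comparisons. Standard errors of log2 fold changes (given after ±) are the change divided by the root of F. The scripts were tested on simulated counts. Alternatives were DESeq2 1.42.0, its size factors in edgeR, no filter, only the groups compared, each library left out, the line Zfp281_WT left out, and the line or clone number as a block. Because the titles give the same line at both stages, the line pairs ESC with 32 h; the deviations of a line at both stages correlated at 0.88 in ribo-depleted WT, 0.05 in Zfp281 KO, 0.05 in polyA WT, 0.46 in Ehmt1 KO, 0.18 in Zic2 KO and 0.53 in double KO cells. Replicates differed beyond sampling noise in every group (chi-square per degree of freedom 3.57 to 37.4).

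The genes and 7 gene lists were chosen with earlier results of these data known. Named genes were the 4 regulators, the targeted genes, paralogs, for each list and comparison up to 3 genes with the smallest adjusted p, and the 3 genes most like each regulator. The text gives a share of these, and 1 of the genes most like Taf7l is not reported here. Exonic lengths came from GENCODE vM21 and promoter sequences from RefSeq GRCm38.p6.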

Additional observations from a re-analysis of the deposited data

Results flagged for a closer look

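The response to 2i withdrawal (32 h against ESC) differed between Zfp281 KO and WT cells for Dmrt1 and for Taf7l by the test of the difference itself. For Dmrt1 the difference was 1.51 on the log2 scale (adjusted p = 0.015), with a response of 2.16 in KO and 0.65 in WT cells, and both lines of each genotype had more Dmrt1 at 32 h than at ESC. For Taf7l the difference was -1.31 (adjusted p = 0.0063), with 1.08 in KO and 2.40 in WT cells, again upward in both lines of each genotype. Leaving out 1 library at a time gave differences of 1.27 to 1.68 for Dmrt1 and -1.65 to -1.14 for Taf7l. The call of each gene was lost in some of these fits. The median difference of X-linked genes was -0.13.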

How the results depend on the processing

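Of 92 log2 changes of the 4 genes, 34 were called, and 18 of these were called in the same direction under every alternative run for them. No called value turned its sign in any alternative, and 265 of the 307 alternatives of called values kept the call and the direction. A response is 32 h against ESC within a genotype, and a difference of response is that of the KO minus that of WT. The cause of the changes given here was not tested, except that leaving out libraries or fitting only the groups compared leaves fewer libraries to estimate the spread, and that a lone library of a group is then assumed to vary like the other groups.

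With only the groups compared in the fit, Dazl 0.70 in WT response in ribo-depleted libraries, Dmrt1 0.62 in WT response in ribo-depleted libraries and Dazl -0.87 in double KO response no longer passed. Taf7l 1.83 in double KO response and Dazl 0.77 in double against Zic2 KO at ESC also no longer passed. Dazl 0.35 in Zfp281 KO response, Dmrt1 1.04 in WT response in polyA libraries and Taf7l -1.07 in Ehmt1 KO against WT at 32 h passed the test. Taf7l 1.62 in Ehmt1 KO response, Dmrt1 1.35 in Zic2 KO against WT at ESC and Taf7l -0.72 in Zic2 KO against WT at 32 h also passed the test. Dmrt1 -0.51 in Zic2 KO response, Taf7l 1.17 in Zic2 KO response and Dmrt1 -1.57 in Zic2 KO difference of response also passed the test. Dmrt1 -1.03 in double KO against WT at 32 h and Dmrt1 -0.81 in double against Zic2 KO at 32 h also passed the test. Sohlh2 -0.05 in Zfp281 KO against WT at 32 h and Taf7l 0.02 in double KO against WT at ESC changed sign without passing in either fit. Calls over all genes in those smaller fits came to 2298 in WT response in ribo-depleted libraries, 8754 in Zfp281 KO response, 1653 in Ehmt1 KO response and 132 in Ehmt1 KO difference of response. Others were 207 in Zic2 KO against WT at ESC, 1516 in Zic2 KO against WT at 32 h, 8112 in Zic2 KO response and 41 in Zic2 KO difference of response. Others were 3386 in double KO against WT at ESC, 319 in double KO response, 374 in double KO difference of response and 0 in double against Ehmt1 KO at ESC. Others were 0 in double against Ehmt1 KO at 32 h. With the line as a replicate block, Dazl 0.43 in Zfp281 KO response, Dmrt1 1.07 in WT response in polyA libraries and Taf7l 1.59 in Ehmt1 KO response passed the test. Taf7l 1.18 in Zic2 KO response, Dazl -1.37 in Zic2 KO difference of response and Sohlh2 0.61 in double KO response also passed the test. Dazl -1.10 in double KO difference of response and Dmrt1 -1.67 in double KO difference of response also passed the test. Calls over all genes under the line block came to 7525 in WT response in ribo-depleted libraries, 7553 in Zfp281 KO response, 2605 in Zfp281 KO difference of response and 5509 in Ehmt1 KO response. Others were 1361 in Ehmt1 KO difference of response, 50 in Zic2 KO difference of response, 4310 in double KO response and 2611 in double KO difference of response. With the clone number as a replicate block, Taf7l -0.13 in double against Zic2 KO at 32 h changed sign without passing in either fit. Calls over all genes under the clone number came to 9 in double against Ehmt1 KO at ESC. Without the line Zfp281_WT, Dazl 0.36 in Zfp281 KO response passed the test. Sohlh2 -0.06 in Zfp281 KO against WT at ESC, Sohlh2 -0.13 in Zfp281 KO against WT at 32 h and Sohlh2 -0.08 in WT response in ribo-depleted libraries changed sign without passing in either fit. Calls over all genes without that line came to 5511 in Zfp281 KO against WT at ESC, 8839 in Zfp281 KO response and 2988 in Zfp281 KO difference of response. With DESeq2, Taf7l 1.64 in Ehmt1 KO response, Sohlh2 0.62 in double KO response and Dazl -1.10 in double KO difference of response passed the test. Dazl 1.22 in double against Ehmt1 KO at ESC also passed the test. Taf7l 0.00 in double KO against WT at ESC changed sign without passing in either fit. Calls over all genes by DESeq2 came to 632 in Ehmt1 KO difference of response, 281 in Zic2 KO against WT at ESC, 175 in Zic2 KO against WT at 32 h and 24 in Zic2 KO difference of response. Others were 1358 in double KO difference of response, 189 in double against Ehmt1 KO at ESC and 259 in double against Ehmt1 KO at 32 h. With no filter on low counts, Taf7l 1.83 in double KO response no longer passed. Sohlh2 0.61 in double KO response and Dazl 1.21 in double against Ehmt1 KO at ESC passed the test. Calls over all genes with no filter came to 94 in Zic2 KO against WT at ESC, 48 in Zic2 KO against WT at 32 h, 36 in double against Ehmt1 KO at ESC and 69 in double against Ehmt1 KO at 32 h. With DESeq2 size factors in edgeR, calls over all genes came to 7 in double against Ehmt1 KO at ESC. The line was the same at both stages, so the block follows the design. The clone number links double and single KO lines by number alone: the correlation of deviations was 0.22 with the Ehmt1 KO and -0.06 with the Zic2 KO. No blocked value other than those given here changed a call of the 4 genes.

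Leaving out 1 library at a time, the log2 change of Dazl spanned -0.73 to -0.07 in Zfp281 KO difference of response, 0.63 to 0.87 in Zfp281 KO against WT at 32 h, -0.13 to 0.67 in WT response in polyA libraries and 1.32 to 2.16 in Zic2 KO against WT at ESC. For Dazl it also spanned -1.56 to -0.75 in double KO difference of response, 0.41 to 0.99 in double against Zic2 KO at ESC, 0.94 to 1.04 in double against Zic2 KO at 32 h and -1.15 to -0.56 in double KO response. For Dazl it also spanned 0.88 to 1.47 in double against Ehmt1 KO at ESC. Leaving out 1 library at a time, the log2 change of Sohlh2 spanned -0.07 to 1.16 in Zfp281 KO against WT at ESC, -0.19 to 0.93 in WT response in ribo-depleted libraries, -1.10 to 0.04 in Zfp281 KO difference of response and -0.15 to 0.18 in Zfp281 KO against WT at 32 h. For Sohlh2 it also spanned 0.05 to 0.80 in Zfp281 KO against WT at 16 h, 0.46 to 0.73 in WT response in polyA libraries, 1.37 to 1.68 in Zic2 KO against WT at ESC and -0.11 to 0.19 in Zic2 KO difference of response. For Sohlh2 it also spanned -0.19 to 0.25 in double KO difference of response, 1.44 to 1.70 in Zic2 KO against WT at 32 h, -0.18 to 0.24 in double against Ehmt1 KO at ESC and -0.07 to 0.43 in Ehmt1 KO response. For Sohlh2 it also spanned 0.45 to 0.76 in Zic2 KO response, -0.29 to 0.13 in double against Zic2 KO at ESC, -0.29 to 0.12 in double against Zic2 KO at 32 h and 0.38 to 0.82 in double KO response. Leaving out 1 library at a time, the log2 change of Dmrt1 spanned 0.41 to 0.82 in WT response in ribo-depleted libraries, 1.27 to 1.68 in Zfp281 KO difference of response, -1.75 to -0.50 in Ehmt1 KO against WT at ESC and -0.23 to 1.02 in Ehmt1 KO response. For Dmrt1 it also spanned -1.89 to -1.68 in Ehmt1 KO against WT at 32 h, -0.28 to 1.39 in double KO against WT at ESC, -1.39 to 0.29 in double KO response and -1.63 to 0.05 in double against Zic2 KO at ESC. For Dmrt1 it also spanned -2.41 to -0.74 in double KO difference of response and 0.70 to 2.54 in double against Ehmt1 KO at ESC. Leaving out 1 library at a time, the log2 change of Taf7l spanned -1.65 to -1.14 in Zfp281 KO difference of response, 2.28 to 2.73 in WT response in polyA libraries, -0.42 to 0.07 in Ehmt1 KO against WT at ESC and -0.85 to 0.52 in double KO against WT at ESC. For Taf7l it also spanned -1.32 to 0.75 in double against Zic2 KO at 32 h, 0.43 to 2.63 in double KO response, -2.03 to 0.17 in double KO difference of response and -0.65 to 0.72 in double against Ehmt1 KO at ESC. For Taf7l it also spanned -2.05 to 0.02 in double KO against WT at 32 h and -0.99 to 1.08 in double against Ehmt1 KO at 32 h. The same left-out libraries gave numbers of genes called of 539 to 6537 in Zfp281 KO against WT at ESC, 62 to 1771 in Zfp281 KO difference of response, 1723 to 2112 in Zfp281 KO response and 2498 to 4944 in Zfp281 KO against WT at 32 h. Further spans were 2137 to 7008 in Zfp281 KO against WT at 16 h, 3499 to 5157 in WT response in polyA libraries, 2590 to 3657 in Ehmt1 KO against WT at ESC and 42 to 295 in Ehmt1 KO difference of response. Further spans were 0 to 214 in Zic2 KO against WT at ESC, 3855 to 5835 in double KO against WT at ESC, 280 to 1334 in double KO difference of response and 0 to 8 in Zic2 KO difference of response. Further spans were 2191 to 3732 in Ehmt1 KO against WT at 32 h, 2 in Zic2 KO against WT at 32 h, 3745 to 4735 in double KO against WT at 32 h and 0 to 287 in double against Ehmt1 KO at ESC. Further spans were 2082 to 3027 in Ehmt1 KO response, 0 to 280 in double against Ehmt1 KO at 32 h, 2965 to 3083 in Zic2 KO response and 2945 to 4811 in double against Zic2 KO at ESC. Further spans were 3131 to 4430 in double against Zic2 KO at 32 h and 1122 to 2803 in double KO response.

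Taf7l rested on as few as 20 counts in a polyA library. Its standard errors there reached 0.61 in comparisons of 2 groups, against at most 0.14 for Taf7l between Zfp281 KO and WT cells. For differences of response they reached 0.80 in the polyA set, against 0.18 for the Zfp281 KO. With 2 libraries a group and clones that differed widely in double KO cells, a value that did not pass is not shown to be unchanged.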
